A study of Mus musculus with 16 samples.

Results

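The genes described here are 10 that build the immunoproteasome and that move, trim and load the peptides it releases. They were chosen by gene symbol: *Psmb8*, *Psmb9*, *Psmb10*, *Psme1*, *Psme2*, *Tap1*, *Tap2*, *Tapbp*, *Tapbpl* and *Erap1*. Each of the 10 was found among 55414 gene identifiers and passed the filter on low counts in every comparison. *Psmb5*, *Psmb6* and *Psmb7*, the subunits that hold the same places in the constitutive proteasome, served as reference.

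Proteasomes cut intracellular proteins into peptides, and in the immunoproteasome the catalytic subunits encoded by *Psmb8*, *Psmb9* and *Psmb10* take the places of those encoded by *Psmb5*, *Psmb6* and *Psmb7*. An activator cap built from the *Psme1* and *Psme2* products opens the core, and the transporter formed by the *Tap1* and *Tap2* products pumps peptides into the endoplasmic reticulum, where aminopeptidases trim them and chaperones load them on MHC class I molecules. Interferons and TNFα are known to induce these genes in many cell types.

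The RNA-Seq libraries came from chondrocyte-enriched cells grown from the epiphyses of 3- to 4-day-old mice on a C57BL/6 background, with cells of male and female pups pooled. The mutant mice were heterozygous for *Notch2* tm1.1Ecan, an allele that stabilizes the intracellular domain of NOTCH2 in every cell that expresses the gene, and Wild type littermates were the controls. Confluent cells were treated with TNFα at 50 ng/ml or with its vehicle, phosphate-buffered saline, for 6 h. There were 4 libraries in each of 4 groups: Wild type vehicle, Wild type TNFα, *Notch2* mutant vehicle and *Notch2* mutant TNFα. The sample labels mention removal of serum for the TNFα groups and not for the vehicle groups, so serum and TNFα cannot be told apart from the labels alone. A figure legend of the study, however, describes both treatments as done without serum. The labels call the libraries biological replicates without stating which culture or animals each came from, and the p-values therefore measure only the spread among these libraries.

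Counts on genes ranged from 13471143 to 18677402 in Wild type vehicle, from 14781440 to 44237300 in *Notch2* mutant vehicle and from 12552727 to 19220459 in Wild type TNFα. In *Notch2* mutant TNFα they ranged from 3439726, in replicate 4, to 17155897. A level is given in CPM, the count scaled to the library size as adjusted by TMM, and 3 counts, taken as the floor of detection, were worth between 0.0678 and 0.872 CPM. The floor covers counting error only.

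Both Wild type replicate 4 libraries stood apart from the others of their groups. On the component that separated the treatments, which held 80.2% of the variance, Wild type vehicle replicate 4 was at -16.6 and the other vehicle libraries were between -48.2 and -45.8. Wild type TNFα replicate 4 was at 32.8 on it, and the other TNFα libraries were between 43.1 and 46.8. Set on a scale from 0% at the mean of the other Wild type vehicle libraries to 100% at that of the other Wild type TNFα libraries, the 10 genes were at 13.5% to 16.9% in Wild type vehicle replicate 4, with a median of 15.0%. In 1288 other genes that TNFα raised in the mutant the median was 14.8%, with quartiles of 8.02% and 20.8%. In Wild type TNFα replicate 4 the 10 genes were at 78.9% to 86.8% with a median of 83.5%, and the other genes had a median of 80.8%. Whether material of the treatments was mixed in these libraries was not tested. The Wild type responses of the 10 genes to TNFα are therefore given with and without both of them, a choice made after seeing the data. *Notch2* mutant TNFα replicate 4, the library with the fewest counts, also stood apart, on the next component, at 24.2 where the others of its group were between 10.8 and 11.5.

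Markers of the labelled cell type were abundant in the cultures, and those of fibroblasts and perichondrium, given with the other cell types, were abundant too. The 15 chondrocyte markers summed to 55737, 53878, 53835 and 51934 CPM in Wild type vehicle and to 37625, 32972, 32387 and 34660.0 CPM in *Notch2* mutant vehicle. With TNFα they summed to 38430.0, 38752, 37668 and 44646 CPM in Wild type and to 23294, 22364, 23004 and 20412 CPM in the mutant. *Col2a1*, which encodes the main collagen of cartilage, was the most abundant of them in every group. The sums were lower in the mutant under either treatment, with no overlap. The 15 macrophage markers summed to 79.3, 85.3, 82.7 and 76.4 CPM in Wild type vehicle and to 178, 169, 168 and 149 CPM in mutant vehicle. With TNFα they summed to 107, 92.2, 88.3 and 98.2 CPM in Wild type and 219.8, 213, 193 and 199 CPM in the mutant, and *Lyz2* was the most abundant. These sums were higher in the mutant under either treatment, with no overlap. In bulk libraries, fewer cells of a type and less RNA per cell cannot be told apart.

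TNFα raised every gene of the set in both genotypes. In Wild type cells 10 of 10 were called higher, beside 23.3% of the 19338 genes tested, and 0 were called lower, beside 20.9%, by edgeR's quasi-likelihood test at a Benjamini-Hochberg adjusted p under 0.05. All 10 also had a log2 fold change of at least 1, beside 8.47% of genes. In *Notch2* mutant cells 10 of 10 were again called higher, beside 22.6% of the 19633 genes tested, 0 were called lower, beside 21.9%, and all 10 had a log2 fold change of at least 1, beside 9.2%. DESeq2 called 8 of the 8 members for which it gave an adjusted p in Wild type and 10 of 10 in the mutant, all higher and 0 lower. The median log2 fold change of the 10 genes was 3.02 in Wild type, 3.58 there without the replicate 4 libraries, and 3.41 in the mutant. Over all genes tested it was 0.04, 0.04 and 0.03. The highest vehicle library lay below the lowest TNFα library for each gene, Wild type replicate 4 included.

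**Figure D1:**
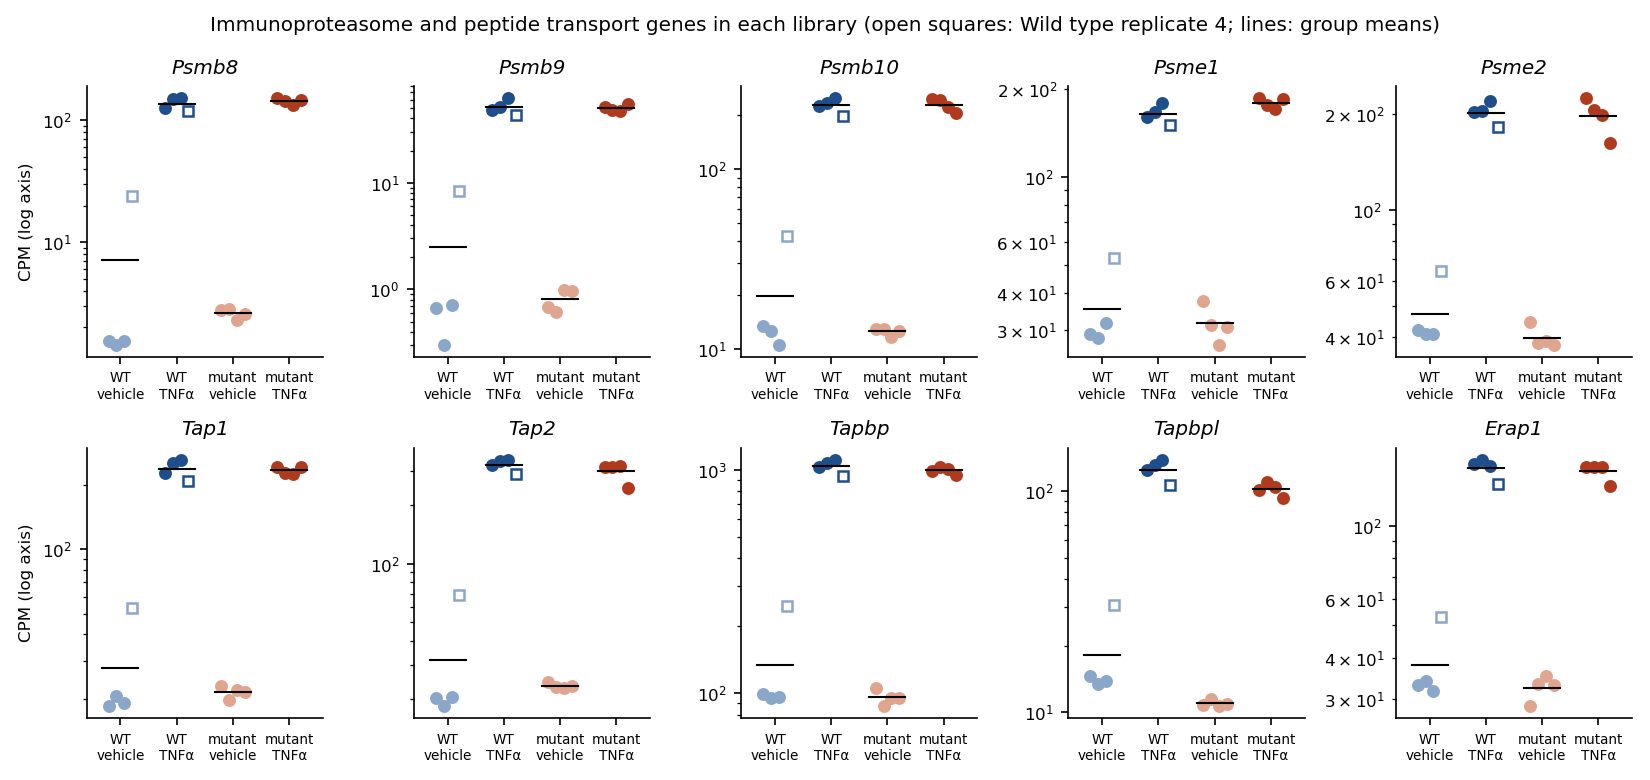
CPM on a log axis for each of the 10 genes in each of the 16 libraries, by group, with lines at the group means and open squares for Wild type replicate 4. In every panel the TNFα libraries sit above the vehicle libraries, and Wild type vehicle replicate 4, at 24.0 CPM for *Psmb8*, sits above the other vehicle libraries.

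The inducible catalytic subunits had the largest log2 fold changes of the set. *Psmb8* (ENSMUSG00000024338, chr17:34416690-34420428, plus strand, in GRCm39 with the GENCODE M39 annotation) encodes the subunit with chymotrypsin-like activity. Its level was 1.55, 1.45, 1.54 and 24.0 CPM in the Wild type vehicle libraries 1 to 4, and 2.76, 2.82, 2.28 and 2.58 CPM in mutant vehicle. With TNFα it was 125, 149, 152 and 119 CPM in Wild type and 152, 144, 135 and 146 CPM in the mutant. The vehicle values were low except in Wild type replicate 4, and the TNFα groups overlapped each other. The log2 fold change was 4.21 ± 0.88 (SE) in Wild type, with an adjusted p of 0.00828 from edgeR, or 18.5-fold. Without both replicate 4 libraries it was 6.55 ± 0.10, or 93.6-fold, with an edgeR adjusted p of 7.58e-27. In the mutant it was 5.79 ± 0.09, or 55.4-fold, with an edgeR adjusted p of 1.31e-26.

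*Psmb9* (ENSMUSG00000096727, chr17:34400960-34406738, minus strand) encodes the inducible subunit that replaces the caspase-like *Psmb6* product. It had the lowest vehicle level, 0.663, 0.305, 0.708 and 8.27 CPM in Wild type and 0.689, 0.616, 0.986 and 0.966 CPM in the mutant, which rested on 12, 4, 11 and 139 counts and on 10, 12, 19 and 42 counts. With TNFα the level was 48.4, 51.7, 61.7 and 42.9 CPM in Wild type and 51.6, 47.9, 46.9 and 54.1 CPM in the mutant. Wild type vehicle replicate 4 was again the high vehicle library, and the genotypes overlapped within each treatment. The log2 fold change with TNFα was 4.30 ± 0.69 in Wild type (adjusted p = 0.00256, edgeR), 6.54 ± 0.16 without both replicate 4 libraries (adjusted p = 6.48e-22, edgeR) and 5.86 ± 0.13 in the mutant (adjusted p = 1.35e-23, edgeR).

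*Psmb10* (ENSMUSG00000031897, chr8:106662362-106665077, minus strand) encodes the inducible subunit that replaces the trypsin-like *Psmb7* product. Its level was 13.4, 12.6, 10.6 and 42.4 CPM in Wild type vehicle and 13.0, 12.9, 11.7 and 12.6 CPM in mutant vehicle, and 226, 235, 248 and 197 CPM and 247, 242, 221 and 206 CPM with TNFα. Wild type vehicle replicate 4 was the high vehicle library, and the genotypes overlapped within each treatment. The log2 fold change was 3.51 ± 0.50 in Wild type (adjusted p = 0.00148, edgeR), 4.28 ± 0.07 without both replicate 4 libraries and 4.2 ± 0.08 in the mutant (adjusted p = 4.47e-25, edgeR).

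The genes of the activator cap rose less on the log2 scale. *Psme1* (ENSMUSG00000022216, chr14:55815190-55822034, plus strand) had 28.9, 28.1, 31.5 and 52.9 CPM in Wild type vehicle, 37.5, 31.0, 26.7 and 30.6 CPM in mutant vehicle, 160.3, 166, 179 and 149.7 CPM in Wild type TNFα and 185, 176, 171 and 185 CPM in mutant TNFα. *Psme2* (ENSMUSG00000079197, chr14:55824895-55829173, minus strand) had 42.1, 40.9, 40.8 and 64.2 CPM, 44.5, 38.1, 38.7 and 37.8 CPM, 202, 203, 219 and 182 CPM and 223, 206, 198 and 162 CPM in the same order of groups. For both genes the genotypes overlapped within each treatment. The log2 fold change of *Psme1* with TNFα was 2.21 ± 0.23 in Wild type (adjusted p = 0.000329, edgeR), 2.52 ± 0.06 without both replicate 4 libraries and 2.51 ± 0.08 in the mutant (adjusted p = 6.18e-19, edgeR). That of *Psme2* was 2.1 ± 0.18 in Wild type (adjusted p = 0.000104, edgeR), 2.34 ± 0.05 without those libraries and 2.33 ± 0.08 in the mutant (adjusted p = 4.40e-16, edgeR). *Psme2b*, a near-identical copy of *Psme2*, had 5, 1, 1 and 9 counts in Wild type vehicle and 16, 42, 23 and 37 counts in Wild type TNFα, so the split of reads between the copies is uncertain.

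Both genes of the peptide transporter rose. *Tap1* (ENSMUSG00000037321, chr17:34405996-34416199, plus strand) had 18.5, 20.6, 19.05 and 53.0 CPM in Wild type vehicle, 22.9, 19.7, 21.9 and 21.5 CPM in mutant vehicle, 228, 252, 262 and 209.6 CPM in Wild type TNFα and 242, 227, 225 and 242 CPM in mutant TNFα. *Tap2* (ENSMUSG00000024339, chr17:34422501-34435829, plus strand) had 20.4, 18.5, 20.5 and 68.9 CPM, 24.6, 23.1, 22.8 and 23.5 CPM, 321, 336, 342 and 288 CPM and 313, 315, 318 and 244 CPM in the same order of groups. For *Tap2* the 4 mutant vehicle libraries lay above Wild type vehicle replicates 1 to 3 and below replicate 4. The log2 fold change of *Tap1* with TNFα was 3.10 ± 0.41 in Wild type (adjusted p = 0.00101, edgeR), 3.69 ± 0.06 without both replicate 4 libraries and 3.45 ± 0.07 in the mutant (adjusted p = 2.75e-24, edgeR). That of *Tap2* was 3.32 ± 0.51 in Wild type (adjusted p = 0.00214, edgeR), 4.07 ± 0.05 without those libraries and 3.67 ± 0.08 in the mutant (adjusted p = 3.83e-23, edgeR).

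The loading chaperones and the trimming peptidase rose as well. *Tapbp* (ENSMUSG00000024308, chr17:34134873-34148267, plus strand) encodes tapasin, which bridges the transporter and class I molecules. It had 99.0, 94.6, 96.3 and 245 CPM in Wild type vehicle, 105.3, 87.4, 95.3 and 94.7 CPM in mutant vehicle, 1025, 1066, 1106 and 937 CPM in Wild type TNFα and 988, 1029, 1004 and 948 CPM in mutant TNFα. *Tapbpl* (ENSMUSG00000038213, chr6:125200373-125208994, minus strand) encodes a relative of tapasin that edits the peptides of class I molecules away from the transporter. It had 14.6, 13.5, 13.8 and 30.5 CPM, 10.7, 11.5, 10.7 and 10.9 CPM, 124, 130.2, 138 and 106 CPM and 101, 109.5, 104 and 93.3 CPM in the same order of groups. In vehicle every mutant library was below every Wild type library for *Tapbpl*, and with TNFα Wild type replicate 4 fell among the mutant libraries. *Erap1* (ENSMUSG00000021583, chr13:74787687-74841320, plus strand) encodes the aminopeptidase that trims peptides in the endoplasmic reticulum. It had 33.0, 34.0, 31.8 and 53.1 CPM, 28.6, 33.2, 35.1 and 33.1 CPM, 154, 158, 151 and 134 CPM and 151, 151, 149.9 and 132 CPM. The genotypes overlapped for *Tapbp* and *Erap1* under either treatment.

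With TNFα, the log2 fold change of *Tapbp* was 2.95 ± 0.39 in Wild type (adjusted p = 0.000993, edgeR), 3.47 ± 0.04 without both replicate 4 libraries and 3.38 ± 0.07 in the mutant (adjusted p = 1.87e-24, edgeR). That of *Tapbpl* was 2.78 ± 0.31 in Wild type (adjusted p = 0.000393, edgeR), 3.23 ± 0.06 without those libraries and 3.22 ± 0.08 in the mutant (adjusted p = 7.65e-23, edgeR). *Erap1* had the lowest log2 fold change of the set in both genotypes, 1.98 ± 0.19 in Wild type (adjusted p = 0.000213, edgeR), 2.24 ± 0.05 without those libraries and 2.17 ± 0.07 in the mutant (adjusted p = 1.72e-19, edgeR). Several of these genes share exon sequence with a gene on the opposite strand: *Psmb9* and *Tap1* share 743 bp, *Psme1* and *Emc9* 2192 bp, *Psme2* and *Rnf31* 731 bp, and *Erap1* and *Cast* 835 bp. *Tapbp* shares 923 bp with *Zbtb22* on the same strand. Long noncoding genes on the opposite strand share exon sequence with 3 of the genes. These are *Gm19412* (1130 bp) and *Gm64688* (326 bp) for *Tapbp*, *Gm15821* (533 bp) and *Gm20496* (165 bp) for *Tap2*, and *Gm20496* (498 bp) for *Psmb8*. The library kit keeps strand, but the strand setting of the counting was not given in the sources used here, so the values of these genes are uncertain to the extent that reads were shared.

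**Figure D2:**
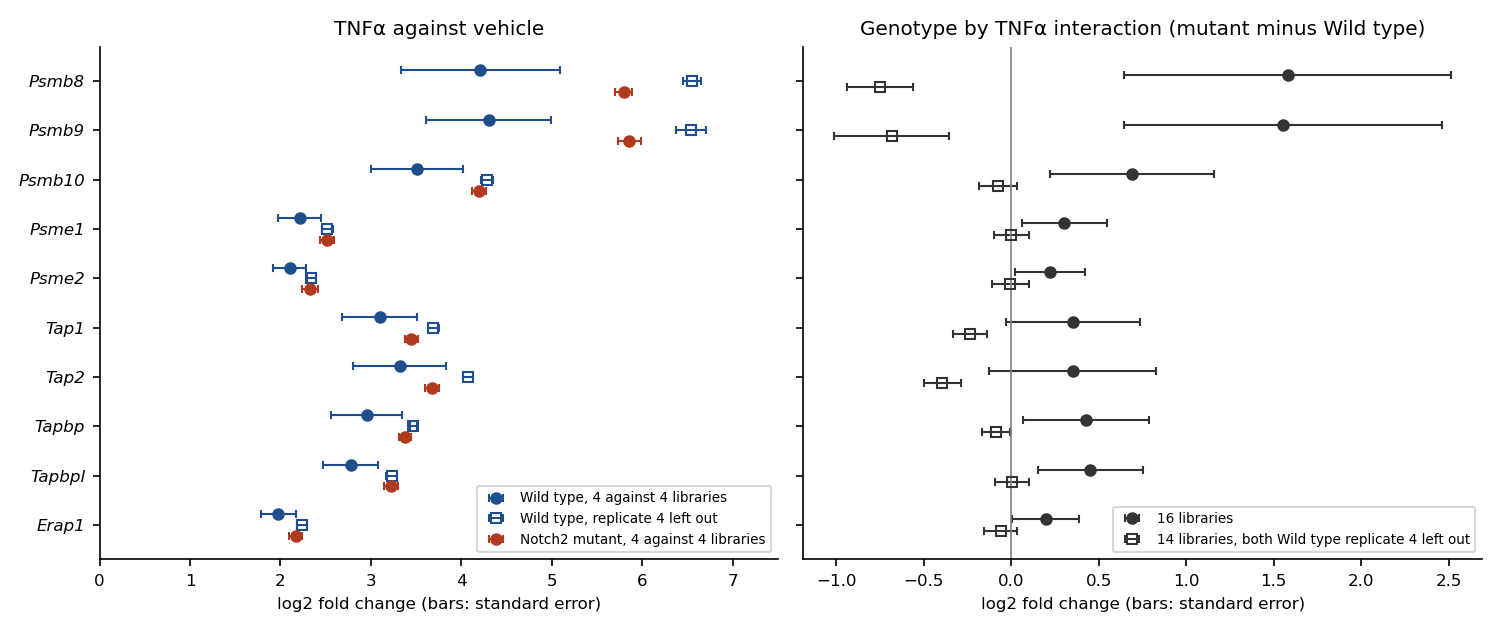
Log2 fold changes with standard errors for each gene. The left panel gives TNFα against vehicle in Wild type, in Wild type without both replicate 4 libraries and in the *Notch2* mutant. The right panel gives the interaction of genotype and TNFα, mutant minus Wild type, from 16 libraries and from the 14 without those libraries, and for *Psmb8* the estimate is 1.58 from 16 and -0.75 from 14.

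The constitutive catalytic subunits were not called higher with TNFα. In Wild type cells 3 of 3 were called lower with TNFα, beside 20.9% of all genes. The log2 fold change was -0.28 ± 0.06 for *Psmb7* (adjusted p = 0.000319, edgeR), -0.25 ± 0.06 for *Psmb5* (adjusted p = 0.00233, edgeR) and -0.18 ± 0.05 for *Psmb6* (adjusted p = 0.00414, edgeR). In the mutant 1 of 3 was called lower, beside 21.9% of all genes. It was *Psmb7*, at -0.37 ± 0.08 (adjusted p = 0.00104, edgeR), while *Psmb5* was at -0.07 ± 0.21, with the sign reversed in DESeq2, and *Psmb6* at -0.12 ± 0.08. Without mutant TNFα replicate 4 the count was 2 of 3, since *Psmb5* was then called lower, at -0.26 ± 0.08 (adjusted p = 0.00925, edgeR). *Psmb5* (ENSMUSG00000022193, chr14:54850776-54855481, minus strand) had 54.3, 52.1, 55.0 and 48.7 CPM in Wild type vehicle and 39.9, 44.0, 48.3 and 43.9 CPM in Wild type TNFα. It had 61.7, 55.1, 52.2 and 54.7 CPM in mutant vehicle and 52.7, 46.1, 41.2 and 85.8 CPM in mutant TNFα, so that mutant TNFα replicate 4 was the high library. *Psmb6* (ENSMUSG00000018286, chr11:70416183-70418684, plus strand) ranged from 107 to 113 CPM in Wild type vehicle and from 91.8 to 101 CPM in Wild type TNFα. *Psmb7* (ENSMUSG00000026750, chr2:38478044-38534099, minus strand), which shares 2817 bp of exon with *Nek6* on the opposite strand, ranged from 79.9 to 90.0 CPM and from 65.2 to 75.3 CPM in those groups. When the spread was estimated over all 16 libraries, *Psmb5* in Wild type was at -0.25 and was not called (adjusted p = 0.254, edgeR). A call in Wild type and not in the mutant does not show that the genotypes differ, and the interaction of *Psmb5* was 0.19 ± 0.23 (adjusted p = 0.883, edgeR).

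The ratio of each inducible subunit to the constitutive subunit whose place it takes was computed in each library from counts per kb of exon, with no test. *Psmb8* to *Psmb5* was 0.0150, 0.0146, 0.0147 and 0.259 in Wild type vehicle, 0.0235, 0.0269, 0.0230 and 0.0247 in mutant vehicle, 1.65, 1.78, 1.65 and 1.42 in Wild type TNFα and 1.51, 1.64, 1.72 and 0.896 in mutant TNFα. Its geometric mean was 0.0302 in Wild type vehicle, or 0.0148 without replicate 4, and 0.0245 in mutant vehicle. With TNFα it was 1.62 in Wild type, or 1.69 without replicate 4, and 1.40 in the mutant, so that more inducible than constitutive transcript was measured per kb of exon in 7 of the 8 TNFα libraries. The exception was mutant replicate 4, where *Psmb5* was high. This count depends on the length used. The exon union of *Psmb8* is 3414 bp and its longest transcript 1907 bp, against 1794 and 1705 bp for *Psmb5*. Each *Psmb8* to *Psmb5* ratio would therefore be higher by the longest transcripts. *Psmb9* to *Psmb6* stayed below 1 in all 16 libraries. Its geometric mean was 0.00547 in Wild type vehicle, or 0.00274 without replicate 4, 0.00410 in mutant vehicle, 0.304 in Wild type TNFα, or 0.327 without replicate 4, and 0.277 in mutant TNFα. *Psmb10* to *Psmb7* was 0.566, 0.489, 0.417 and 1.85 in Wild type vehicle and 0.505, 0.530, 0.451 and 0.526 in mutant vehicle. With TNFα it was 12.04, 12.5, 11.5 and 9.42 in Wild type and 11.2, 11.7, 12.2 and 13.9 in the mutant. The size of this ratio depends on the length used as well. The exon union of *Psmb10* is 1732 bp and its longest transcript 1338 bp, against 6025 and 3478 bp for *Psmb7*. Each *Psmb10* to *Psmb7* ratio would therefore be lower by the longest transcripts. With TNFα its mean log2 value was 3.50 in Wild type and 3.61 in the mutant, but 1.70 and 1.81 when not divided by length. For each pair the vehicle libraries lay below the TNFα libraries, with no overlap.

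**Figure D3:**
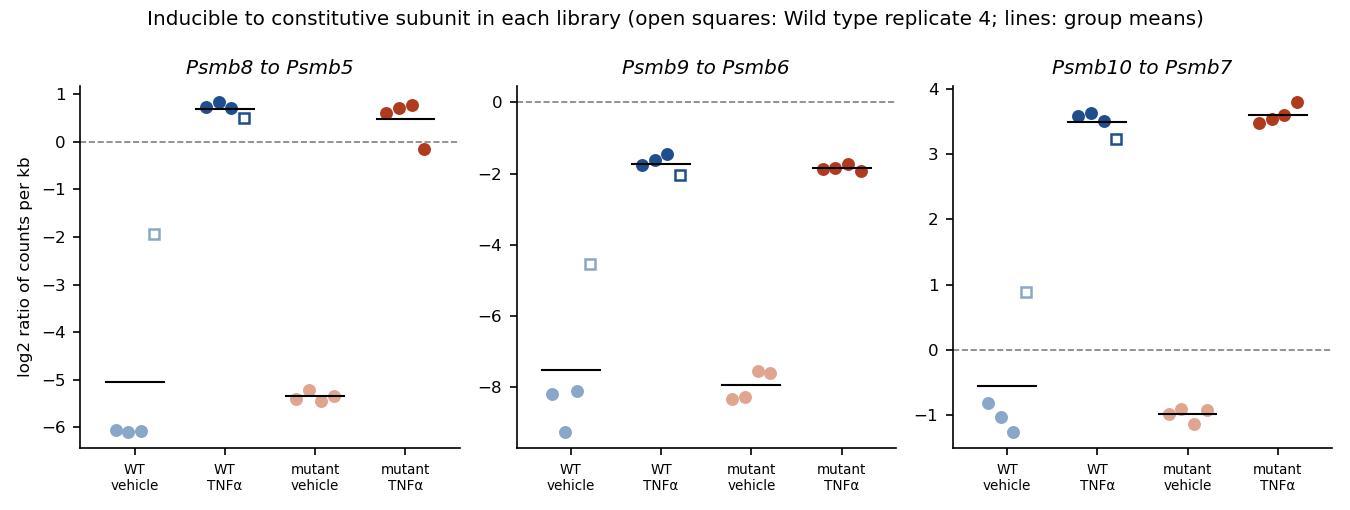
Log2 ratio of inducible to constitutive subunit, in counts per kb of exon, in each of the 16 libraries, with lines at group means, open squares for Wild type replicate 4 and a dashed line at equal counts per kb. With TNFα the mean log2 ratio in Wild type is 0.70 for *Psmb8* to *Psmb5*, -1.72 for *Psmb9* to *Psmb6* and 3.50 for *Psmb10* to *Psmb7*.

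Levels of the 13 genes were ordered by CPM per kb of exon. In mutant vehicle *Psmb6* was the most abundant at 51.3 ± 4.57 CPM per kb (SD, n = 4), followed by *Psmb5* at 31.2 ± 2.25, *Tapbp* at 21.7 ± 1.66, *Psme2* at 16.8 ± 1.33 and *Psmb7* at 14.4 ± 0.592 CPM per kb. *Psmb10* at 7.25 ± 0.336, *Psme1* at 5.68 ± 0.813, *Tap2* at 4.93 ± 0.165, *Erap1* at 4.01 ± 0.342, *Tap1* at 3.58 ± 0.224 and *Tapbpl* at 3.42 ± 0.123 CPM per kb came next. *Psmb8* at 0.764 ± 0.0707 and *Psmb9* at 0.214 ± 0.0498 CPM per kb were lowest. *Psme1* and *Tap2*, and *Tap1* and *Tapbpl*, differed by less than the larger SD of each pair. Wild type vehicle had the same genes at both ends, with *Psmb6* at 50.1 ± 1.08 and *Psmb9* at 0.654 ± 1.02 CPM per kb, or 0.147 ± 0.0582 without replicate 4. With TNFα the order changed. In Wild type, *Tapbp* led at 234 ± 16.3 CPM per kb, followed by *Psmb10* at 131 ± 12.6, *Psme2* at 84.9 ± 6.51, *Tap2* at 67.5 ± 5.07 and *Psmb6* at 43.9 ± 1.83 CPM per kb. *Psmb8* at 39.9 ± 4.82, *Tap1* at 39.6 ± 3.96 and *Tapbpl* at 38.9 ± 4.23 CPM per kb differed from each other by less than their SDs, *Psmb6* and *Psmb8* by less than the SD of *Psmb8*, and *Psme1* followed at 29.6 ± 2.18 and *Psmb5* at 24.5 ± 1.91 CPM per kb. *Erap1* at 18.4 ± 1.32, *Psmb9* at 13.5 ± 2.09 and *Psmb7* at 11.6 ± 0.838 CPM per kb were lowest, and the last 2 differed by less than the SD of *Psmb9*. In mutant TNFα the same 7 genes led in the same order, from *Tapbp* at 225 ± 7.71 to *Tap1* at 38.9 ± 1.48 CPM per kb, but *Psmb6* at 47.7 ± 5.69 and *Psmb8* at 42.2 ± 2.05 CPM per kb differed by less than the SD of *Psmb6*. This shared order holds for the exon union. Divided by the longest transcript, the same 7 led in both genotypes, but after *Psme2* came *Tap2*, *Psmb8*, *Tap1* and *Psmb6* in Wild type and *Psmb8*, *Tap2*, *Psmb6* and *Tap1* in the mutant.

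The comparison of the mutant with Wild type asks whether the genes depended on genotype, and in vehicle no gene of the set was called. The count was 0 of 10 higher, beside 6.19% of the 19432 genes tested, and 0 of 10 lower, beside 4.35%, by edgeR's quasi-likelihood test. At an unadjusted p under 0.05 there were 0 of 10, beside 4226 of the 19432 genes, and DESeq2 called 0 of the 8 to which it gave an adjusted p. *Tapbpl* was at -0.72 ± 0.30 (adjusted p = 0.233, edgeR), and its groups did not overlap. This result rests on Wild type replicate 4. Without it, *Tapbpl* was called lower in the mutant at -0.35 ± 0.10 (adjusted p = 0.0162, edgeR) and *Psmb8* higher at 0.77 ± 0.22 (adjusted p = 0.0219, edgeR), each with no overlap between 3 and 4 libraries, beside 4.59% of genes lower and 5.78% higher in that fit. With replicate 4 the *Psmb8* estimate was -1.47 ± 1.10 (adjusted p = 0.536, edgeR). Marker sums of cell types differed between genotypes in the same libraries, with means of 80.9 CPM in Wild type vehicle and 166 CPM in mutant vehicle for macrophages and of 53846 and 34411 CPM for chondrocytes, all 4 Wild type libraries included, and their part in these calls was not tested. Without replicate 4 an unadjusted p under 0.05 was found for 3 of 10, beside 4079 of the 19089 genes tested. *Tap2* was at 0.24 ± 0.08 without it (adjusted p = 0.0548, edgeR) and at -0.45 ± 0.49 with it. The median of the 10 genes was -0.47 with replicate 4 and 0.06 without, beside -0.00 over all genes tested in either fit. A p that misses the threshold does not show that levels were equal.

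With TNFα, *Tapbpl* was lower in the mutant and no other gene of the set was called. The count was 1 of 10 lower, beside 4.31% of the 19227 genes tested, and 0 of 10 higher, beside 5.63%. The *Tapbpl* difference on the log2 scale was -0.27 ± 0.07 (adjusted p = 0.0111, edgeR) with overlapping groups. Without Wild type replicate 4 it was -0.35 ± 0.06 (adjusted p = 0.000144, edgeR), and the groups did not overlap. The call was lost, at -0.28 with an edgeR adjusted p of 0.474, when the spread was estimated over all 16 libraries, the replicate 4 libraries among them. An unadjusted p under 0.05 was found for 2 of 10, beside 4116 of the 19227 genes, which is a like share. These were *Tapbpl* and *Psme1*, the latter at 0.14 ± 0.06 (adjusted p = 0.198, edgeR), and DESeq2 called 1 lower and 0 higher. The median of the 10 genes was -0.01, or -0.08 without replicate 4, beside -0.01 and -0.02 over all genes tested. The mutant libraries that were lower for *Tapbpl* also had lower chondrocyte and higher macrophage marker sums, and the part of these in the result was not tested. The vehicle comparison and this one share no libraries with each other, but each shares its libraries with the TNFα comparisons.

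The interaction of genotype and TNFα asks whether the response differed between genotypes, and its sign for most of these genes turned on the Wild type replicate 4 libraries. With all 16 libraries 0 of 10 genes were called higher, beside 0.267% of the 21321 genes tested, and 0 lower, beside 0.206%, by edgeR's quasi-likelihood test. None had an unadjusted p under 0.05 (0 of 10, beside 1856 of the 21321 genes), and DESeq2 called 0 of 8. All 10 estimates, taken as the mutant response minus the Wild type response, were above 0, from 0.20 ± 0.19 for *Erap1* to 1.58 ± 0.93 for *Psmb8*. Without both replicate 4 libraries 9 of 10 were below 0, and *Tapbpl* was at 0.00 ± 0.10. *Psmb8* was then called, at -0.75 ± 0.19 (adjusted p = 0.0447, edgeR), which is a smaller rise in the mutant, beside 0.277% of genes called lower and 0.353% higher in that fit. With any 1 library left out, 0 of 10 were called in either direction, and *Psmb8* was between -0.71 and 1.94, with a lowest edgeR adjusted p of 0.121, so the call was not made with either replicate 4 library left out alone. Without both, 4 of 10 had an unadjusted p under 0.05, beside 1756 of 20955 genes. *Tap2* was at -0.39 ± 0.10 without both (adjusted p = 0.0665, edgeR), *Psmb9* at -0.68 ± 0.33 (adjusted p = 0.571, edgeR) and *Tap1* at -0.24 ± 0.10 (adjusted p = 0.420, edgeR). The other 5 of the genes below 0 were between -0.09 for *Tapbp* and -0.00 for *Psme1*. With either set of libraries the *Psmb8* levels with TNFα did not differ between genotypes by the test, at 0.09 ± 0.07 with replicate 4 and 0.02 ± 0.07 without (adjusted p = 0.513 and 0.922, edgeR).

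Over all genes tested, 23.3% were called higher and 20.9% lower with TNFα in Wild type, and 22.6% and 21.9% in the mutant. Of the 11 other subunits of the 20S core, 3 were called higher and 3 lower with TNFα in Wild type, and 2 and 3 in the mutant. The medians were 0.02 in Wild type, -0.02 without the replicate 4 libraries, and -0.10 in the mutant. *Psma5* rose by 0.53 ± 0.06 and *Psma6* by 0.52 ± 0.06 in Wild type (adjusted p = 6.81e-08 and 1.29e-07, edgeR), while *Psmb2* was at -0.39 ± 0.06 there and *Psmb3* at -0.37 ± 0.08 in the mutant. Of the 19 subunits of the 19S regulatory particle, the cap that admits ubiquitylated proteins, 0 were called higher and 17 lower in Wild type, 18 lower without the replicate 4 libraries, and 0 and 16 in the mutant. Their medians were -0.26 in Wild type and -0.30 in the mutant, and *Psmd14*, which encodes the deubiquitinase of the particle, was at -0.55 ± 0.05 and -0.59 ± 0.07 (adjusted p = 2.94e-08 and 1.19e-07, edgeR). *Psmc5* was at -0.35 ± 0.06 and -0.43 ± 0.07 in those genotypes, *Psmd12* at -0.36 ± 0.06 in Wild type and *Psmd6* at -0.55 ± 0.08 in the mutant. Of 9 other caps, inhibitors and assembly chaperones 4 were called higher and 2 lower in Wild type and 3 and 2 in the mutant. Without the replicate 4 libraries the Wild type counts were 4 and 3. The medians were 0.09 in Wild type, 0.19 without those libraries, and -0.22 in the mutant. *Pomp*, which encodes a chaperone of proteasome assembly, was among those that rose, at 0.39 ± 0.05 in Wild type and 0.40 ± 0.07 in the mutant (adjusted p = 1.94e-06 and 5.73e-05, edgeR), as was the chaperone gene *Psmg4* at 0.71 ± 0.12 and 0.99 ± 0.12, while *Psmg1* was at -0.40 ± 0.10 in Wild type. *Psme2b* was at 2.76 ± 0.44 in Wild type, 3.42 ± 0.53 without the replicate 4 libraries and 2.65 ± 0.40 in the mutant, with the same uncertainty of the copies. Of the 2 genes of the thymoproteasome list, *Psmb11* had at most 1 count in any library and *Prss16* was not called with TNFα in either genotype.

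Of 9 other peptidases that trim or destroy peptides, 1 was called higher and 5 lower with TNFα in Wild type and 1 and 6 in the mutant. The medians were -0.19 and -0.22. This list and the next stand beside 23.3% of all genes called higher and 20.9% lower in Wild type, and 22.6% and 21.9% in the mutant. *Lap3*, which encodes leucine aminopeptidase, was at -0.33 ± 0.06 in Wild type and -0.44 ± 0.07 in the mutant (adjusted p = 5.54e-05 and 9.86e-06, edgeR), and *Dpp9* was at -0.42 ± 0.05 and -0.42 ± 0.06. *Tpp2* was at -0.27 ± 0.06 in Wild type and *Thop1* at -0.36 ± 0.07 in the mutant. Of 7 class I chains and loading chaperones, 4 were called higher and 1 lower in each genotype, with medians of 1.41 and 1.61. *H2-K1*, which encodes a class I heavy chain, was at 2.63 ± 0.29 in Wild type, 3.01 ± 0.04 without the replicate 4 libraries and 2.96 ± 0.07 in the mutant, and *B2m*, the light chain, was at 1.41 ± 0.13, 1.58 ± 0.04 and 1.61 ± 0.07. In the same order, *H2-T23* was at 2.71 ± 0.38, 3.28 ± 0.10 and 3.07 ± 0.09, and *H2-D1* at 1.9 ± 0.16, 2.1 ± 0.04 and 2.06 ± 0.07. The adjusted p of *B2m* was 0.000137 in Wild type and 3.87e-17 in the mutant by edgeR. Between genotypes in vehicle, edgeR called 1 of 19, 1 of 9 and 1 of 7 genes higher in the mutant in the lists of the 19S particle, the peptidases and the class I chains, and 0 of 11 and 0 of 9 in those of the 20S core and the other caps and chaperones. These counts stand beside 6.19% of the 19432 genes tested, and nothing about the lists is read from them. The genes called by edgeR were *Psmd6* at 0.19 ± 0.05 (adjusted p = 0.0282, and 0.0858 without Wild type replicate 4), *Rnpep*, which encodes aminopeptidase B, at 0.29 ± 0.06 (adjusted p = 0.00141) and *Calr*, which encodes calreticulin, at 0.17 ± 0.05 (adjusted p = 0.0303). *Prss16*, of the thymoproteasome list, was at -0.91 ± 0.30 in vehicle (adjusted p = 0.0556, edgeR) with no overlap between genotypes, and without Wild type replicate 4 it was called lower in the mutant, at -1.04 ± 0.31 (adjusted p = 0.0308, edgeR).

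Of the genes for transcription factors and interferon signals that act on the set, 17 of 20 tested were called higher and 0 lower in Wild type. The counts were 16 and 1 of 19 without the replicate 4 libraries, and 16 and 1 of 19 in the mutant. Over all genes 23.3% were called higher and 20.9% lower in Wild type. The shares were 24.6% and 22.8% without the replicate 4 libraries and 22.6% and 21.9% in the mutant. The count of 17 includes *Ifnb1* and *Ciita*, whose vehicle counts were at the floor. Without the replicate 4 libraries *Ifnb1* no longer passed the filter on low counts, and *Ciita* was still called, as it was in the mutant. Over the 18 genes above 3 counts in both groups the median was 1.41 in Wild type and 1.67 in the mutant. *Nlrc5*, the class I transactivator, had 2.93, 2.28, 3.603 and 12.6 CPM in Wild type vehicle, 2.82, 2.77, 2.70 and 3.22 CPM in mutant vehicle, 64.8, 72.0, 72.3 and 54.8 CPM in Wild type TNFα and 59.9, 62.5, 68.4 and 56.8 CPM in mutant TNFα. *Irf1*, an interferon regulatory factor, had 18.1, 15.1, 18.6 and 59.9 CPM, 19.8, 18.2, 16.2 and 16.3 CPM, 272, 285, 298 and 235 CPM and 323, 297, 298 and 334 CPM in the same order. Both had Wild type vehicle replicate 4 as the high vehicle library, like the 10 genes, and no overlap between treatments. The log2 fold change of *Nlrc5* was 3.6 ± 0.48 in Wild type, 4.56 ± 0.10 without the replicate 4 libraries and 4.41 ± 0.10 in the mutant, and that of *Irf1* was 3.28 ± 0.51, 4.04 ± 0.06 and 4.16 ± 0.08. Their adjusted p in the mutant was 2.58e-23 and 5.18e-25 by edgeR.

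Levels of 2 interferon genes were looked at, and other interferon genes were not analysed here. *Ifng*, which encodes interferon γ, had 0 counts in all 16 libraries. *Ifnb1*, which encodes interferon β, had 0, 0, 0 and 1 counts in Wild type vehicle, 2, 2, 3 and 7 counts in Wild type TNFα, 0, 0, 0 and 0 counts in mutant vehicle and 3, 0, 3 and 0 counts in mutant TNFα, so that Wild type TNFα replicate 4 was the single library above the floor of 3 counts. No fold is given for *Ifnb1*, or for *Ciita*, the class II transactivator, which had 0, 0, 0 and 2 counts in Wild type vehicle, 2, 5, 14 and 11 in Wild type TNFα, 0, 0, 0 and 0 in mutant vehicle and 7, 5, 10 and 1 in mutant TNFα. RNA of other cells, protein and earlier time points were not analysed here. In the comparison of genotypes with TNFα, 5 of 20 of this list were called higher, *Ifnar2* at 0.41 ± 0.10, *Ifngr1* at 0.32 ± 0.06, *Nfkb1* at 0.32 ± 0.06, *Rela* at 0.26 ± 0.06 and *Irf2* at 0.22 ± 0.07, beside 5.63% of all genes. Without the replicate 4 libraries *Ifnar2*, at 0.35 ± 0.12 (adjusted p = 0.0909, edgeR), and *Irf2*, at 0.17 ± 0.07 (adjusted p = 0.118, edgeR), lost their calls, the other 3 kept theirs, and *Irf9*, at -0.25 ± 0.06, and *Ifngr2*, at -0.19 ± 0.06, were called lower. In vehicle 0 of 18 were called by edgeR with all libraries and 1 higher, *Ifngr1*, without them.

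*Psmb9*, *Tap1*, *Psmb8* and *Tap2* lie side by side on chromosome 17 within the class II region, and *Psmb9* runs against the other 3. A list of 10 genes held neighbours in that region and *Cd74*, the invariant chain of class II molecules, which lies on another chromosome. Of these 10 genes 7 could be tested with TNFα. In Wild type 6 were called higher, beside 23.3% of all genes, and 5 without the replicate 4 libraries, beside 24.6%. In the mutant 6 were called higher, beside 22.6%. In either genotype 0 were called lower, beside 20.9% and 21.9%, and *Cd74* was among those called higher. It had 5, 2, 0 and 75 counts in Wild type vehicle, 290, 483, 489 and 477 in Wild type TNFα, 7, 10, 5 and 14 in mutant vehicle and 407, 511, 496 and 119 in mutant TNFα. *H2-Aa* had at most 5 counts in any vehicle library and between 2 and 28 with TNFα. *H2-Ab1*, the gene that follows *H2-Ob* beyond *Tap2*, rose by 1.36 ± 0.20 in Wild type and 1.2 ± 0.31 in the mutant (adjusted p = 8.74e-06 and 0.00193, edgeR) and was lower in the mutant with TNFα, at -0.69 ± 0.20 (adjusted p = 0.0242, edgeR). *H2-Ob* and *H2-DMb2* had mean levels of at most 0.0173 CPM in any group, so the levels of neighbours of the 4 genes were not alike.

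**Figure D4:**
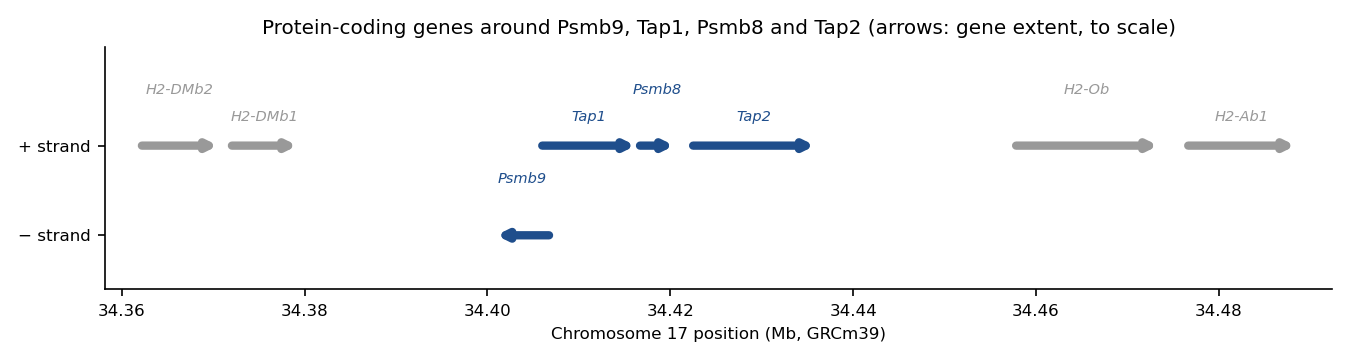
Protein-coding genes around *Psmb9*, *Tap1*, *Psmb8* and *Tap2* on chromosome 17 of GRCm39, to scale, with position in Mb on the horizontal axis and an arrow for the direction of each gene. The 4 genes span 34400960 to 34435829, and *Psmb9* is on the minus strand.

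*Psmb9* and *Tap1* start close to each other on opposite strands, and both rose with TNFα, so the sequence around their starts is shown. Promoter windows, 250 bases before to 50 after a gene start, were matched by symbol in a RefSeq table of build GRCm38.p6 for 8 of the 10 genes, and *Tap2* and *Tapbpl* were not among them. The starts of *Psmb9* and *Tap1* in that table are 226 bases apart and the genes run away from each other, whereas in GENCODE M39 the genes overlap by 743 bp, so the start used depends on the annotation. Their windows share 275 bases, chr17:34187306-34187580, given 5′ to 3′ on the plus strand, the strand of *Tap1*. Capitals mark a CCAAT box (CCAAT), an SP1 box (GGGCGG) and the core letters that RBPJ, the nuclear partner of Notch, is known to bind (TGGGAA), each searched on both strands.
Psmb9 and Tap1 shared: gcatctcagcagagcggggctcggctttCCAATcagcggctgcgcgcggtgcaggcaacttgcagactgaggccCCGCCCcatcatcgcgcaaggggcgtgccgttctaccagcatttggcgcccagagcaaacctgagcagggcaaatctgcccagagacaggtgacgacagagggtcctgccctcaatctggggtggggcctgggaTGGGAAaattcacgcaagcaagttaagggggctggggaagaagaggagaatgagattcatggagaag
The other windows shown hold a match to letters bound by interferon-activated factors. For *Psme1* (chr14:55578244-55578543, plus strand) and *Erap1* (chr13:74639603-74639902, plus strand), capitals mark the interferon response core, GAAANNGAA on either strand, and in *Erap1* 2 matches overlap. For *Psmb8* (chr17:34197945-34198244, plus strand), capitals mark the gamma-activated site letters, TTCNNNGAA, which overlap a TGGGAA match on the other strand.
Psme1: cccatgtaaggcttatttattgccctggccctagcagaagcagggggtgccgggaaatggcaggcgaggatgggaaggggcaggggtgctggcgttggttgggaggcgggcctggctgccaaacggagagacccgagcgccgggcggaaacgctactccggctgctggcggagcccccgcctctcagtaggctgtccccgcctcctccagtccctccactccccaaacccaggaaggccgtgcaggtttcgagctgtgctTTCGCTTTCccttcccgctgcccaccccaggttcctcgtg
Erap1: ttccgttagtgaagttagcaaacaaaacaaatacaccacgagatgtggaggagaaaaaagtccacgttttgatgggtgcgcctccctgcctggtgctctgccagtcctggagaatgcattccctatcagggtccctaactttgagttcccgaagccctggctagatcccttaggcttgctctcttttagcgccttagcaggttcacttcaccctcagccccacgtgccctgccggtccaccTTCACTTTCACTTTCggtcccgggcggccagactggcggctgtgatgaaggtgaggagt
Psmb8: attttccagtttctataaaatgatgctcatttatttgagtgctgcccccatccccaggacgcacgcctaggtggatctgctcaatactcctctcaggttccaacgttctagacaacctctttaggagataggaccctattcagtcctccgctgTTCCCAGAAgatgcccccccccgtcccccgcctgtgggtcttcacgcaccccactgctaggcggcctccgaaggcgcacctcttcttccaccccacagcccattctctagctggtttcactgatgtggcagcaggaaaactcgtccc

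Across the promoter windows of the 8 genes, the interferon response core was found in 2 and in 8.56% of the 32851 windows of the table. The gamma-activated site letters were found in 1, beside 8.3% of windows, and the NF-κB consensus in 0, beside 8.46%. TGGGAA was found in 7 of 8, all but *Erap1*, beside 25.6% of windows. For *Psme2* this match was in 1 of its 2 windows, and the match of *Psmb9* and *Tap1* is the same site, as are their CCAAT and SP1 matches. The CCAAT box was found in 3, beside 37.4%, and the SP1 box in 6, beside 35.7%. Of the constitutive genes *Psmb5* and *Psmb6* were matched, and the SP1 box in *Psmb6* was their single match to any of these letters. A match describes the letters in these windows and says nothing of binding.

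The genes whose log2 levels (CPM plus 1) were most like the mean of the 10, each scaled over the 16 libraries, were *Heatr9*, with a Pearson r of 0.999, *Parp10* at 0.999, *Relb* at 0.999, *Parp12* at 0.998 and *Angptl4* at 0.998, out of 13405 genes over 16 libraries. The libraries fall in 2 clusters by treatment, so these values describe mainly that difference, and 2 of the 5 were among the 5 highest without the replicate 4 libraries. For deviations from the group means the 5 highest were *Mmp3* at 0.993, *Lbp* at 0.990, *Slc2a6* at 0.989, *Parp10* at 0.989 and *Cx3cl1* at 0.987. These rested on the replicate 4 libraries, since over the 14 others r was 0.679, 0.729, 0.499, 0.880 and 0.410, and 0 of the 5 stayed among the 5 highest.

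Most markers of T, NK, B and mast cells had 3 counts or fewer in every library. In vehicle 15 of 15 chondrocyte markers were called lower in the mutant and 12 of 15 macrophage markers higher, by edgeR's quasi-likelihood test. With TNFα the counts were 15 of 15 and 14 of 15. Between genotypes, 4.35% of all genes were called lower and 6.19% higher in vehicle, and 4.31% and 5.63% with TNFα. Without Wild type replicate 4 the vehicle counts were 14 and 13. Of 6 markers of fibroblasts and perichondrium, 3 were called higher in the mutant in vehicle and 1, *Dcn*, was called lower. With TNFα 4 were called higher in the mutant, or 3 without Wild type replicate 4, and *Dcn* was again called lower. TNFα against vehicle gave 12 of 15 chondrocyte markers called lower in each genotype. Macrophage markers were called higher with TNFα for 4 of 14 tested in Wild type, 3 of 14 without the replicate 4 libraries, and 9 of 15 in the mutant, with 1 lower in each. Markers of fibroblasts and perichondrium were called higher for 4 of 6 and 3 of 6, osteoclast markers for 3 of 3 and 2 of 3 tested, and dendritic cell markers for 1 of 4 tested in each genotype. The single B cell marker tested was called higher and the single T and NK cell marker lower in each genotype, 1 and 0 of 6 endothelial markers were called higher, and 2 and 1 of 6 skeletal muscle markers lower. For TNFα against vehicle the shares over all genes were 23.3% higher and 20.9% lower in Wild type and 22.6% and 21.9% in the mutant. Of 9 T and NK cell markers 8 were at 3 counts or fewer in every library, as were 4 of 5 B cell, 4 of 5 mast cell, 2 of 6 dendritic cell and 2 of 5 osteoclast markers. Among the defining markers at that floor were *Cd3e*, *Ms4a2*, *Flt3* and *Ocstamp*. The 6 dendritic cell markers summed to a mean of 7.71 CPM in Wild type vehicle and 18.0 CPM in Wild type TNFα, nearly all from *Zbtb46*. The T and NK cell markers summed to 0.361 and 0.113 CPM in those groups and to 1.42 and 0.283 CPM in mutant vehicle and mutant TNFα, mostly from *Trac*. *Trac* was called higher in the mutant in vehicle, at 1.91 ± 0.36 (adjusted p = 0.000603, edgeR), with 9, 5, 6 and 3 counts in Wild type and 24, 34, 18 and 53 in the mutant. In Wild type vehicle and Wild type TNFα the B cell markers summed to 0.488 and 4.47 CPM, mostly from *Pax5*, the mast cell markers to 0 and 0.0529 CPM, and the osteoclast markers to 8.24 and 15.4 CPM, mostly from *Acp5*. The 6 endothelial markers, led by *Tek*, summed to 7.94 CPM in Wild type vehicle and 17.6 CPM in mutant vehicle. The 6 skeletal muscle markers, led by *Acta1*, summed to 22.5 and 33.1 CPM. The 6 markers of fibroblasts and perichondrium, led by *Col1a1*, summed to 32856 and 37410.0 CPM in Wild type and mutant vehicle and to 32315 and 39418 CPM with TNFα. The chondrocyte markers had means of 53846, 34411, 39874 and 22268 CPM in the same order. Library by library, the fibroblast sum was below the chondrocyte sum in all 8 Wild type libraries and above it in all 8 mutant libraries. These sums are not per length, and the lists differ in size. The fibroblast sum came mostly from 3 collagen genes. In Wild type vehicle replicate 1, *Col1a1*, *Col1a2* and *Col3a1* had 14690, 12433 and 6374 of its 34407 CPM. Which cells expressed these genes was not tested, so the sums do not give shares of cells. The part of any of these cell types in the response of the 10 genes was not tested.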

How the data were processed

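The authors deposited raw counts per Ensembl gene for each of 16 libraries, made with htseq-count. The submitters' processing notes name HISAT2 2.1.0, SAMtools 1.9, Picard, HTSeq and DESeq2 with GRCm38, whereas the study's methods name a later mouse build. Names, lengths and positions came from GENCODE M39 of GRCm39, which lacks 665 identifiers with 0.018% of counts. The 5 entries that name no gene, 8.81 to 12.1% of fragments, were left out.

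Genes with at least 10 summed counts were tested with edgeR 4.0.16 (TMM, robust quasi-likelihood), a step tested on simulated data, in R 4.3.3, within the compared groups or, for the interaction, over 16 libraries. Alternatives were DESeq2 1.42.0, RLE scaling, other filters, a shared fit, a replicate block and left-out libraries. Named genes were the 10 members, their 3 counterparts, the regulator and interferon genes *Nlrc5*, *Irf1*, *Ifnb1* and *Ifng*, with *B2m*, *Pomp* and *Psme2b*, and up to 3 called genes with non-overlapping groups and the largest log2 fold change from each list. Not every gene this covers is reported here. *Rela*, *Irf2*, *Irf9*, *Ifngr2*, *Prss16*, *Psmb11*, *H2-Ob* and *H2-DMb2* were named after their values were seen. Likeness used log2(CPM + 1) where log2 CPM had been planned. Members and lists were chosen with earlier results of these data known. Figures were drawn with matplotlib 3.10.9 under Python 3.11.15, from tables made with numpy 2.4.6 and pandas 2.3.3.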

Additional observations from a re-analysis of the deposited data

Results flagged for a closer look

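In each group of 4 libraries, a value was singled out when its gap to the nearest other library, divided by the range of the group, was above Dixon's 95% critical value. Chance does this in about 1 in 20 groups, and it was found in 15 of 64.

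Wild type vehicle replicate 4 was far above the other 3 libraries of its group for all 10 genes. It had 24.0 CPM for *Psmb8*, 8.27 for *Psmb9*, 42.4 for *Psmb10*, 52.9 for *Psme1* and 64.2 for *Psme2*. It had 53.0 CPM for *Tap1*, 68.9 for *Tap2*, 245 for *Tapbp*, 30.5 for *Tapbpl* and 53.1 for *Erap1*. Its log2 ratio of *Psmb8* to *Psmb5* was -1.95. These values come from the same library and are not independent of each other.

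*Notch2* mutant vehicle replicate 1 was above the others of its group for *Psme2*, at 44.5 CPM, and for *Psmb6*, at 128 CPM. *Notch2* mutant TNFα replicate 4, the library with 3439726 counts, was below the others of its group for *Tap2*, at 244 CPM, and for *Erap1*, at 132 CPM. The causes were not tested.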

How the results depend on the processing

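The 10 calls with TNFα in each genotype held under RLE scaling, other filters, a fit to all 16 libraries, the replicate block, an adjusted p under 0.1 and with any library left out. DESeq2 gave no p for *Psmb8* and *Psmb9* in Wild type with TNFα, in the vehicle comparison of genotypes or in the interaction, so it gave them no value there. Leaving out both Wild type replicate 4 libraries, chosen after seeing the data, gave 1 gene called lower in the interaction, and estimates of -0.75 for *Psmb8*, -0.68 for *Psmb9*, -0.075 for *Psmb10*, -0.00024 for *Psme1*, -0.0052 for *Psme2*, -0.24 for *Tap1*, -0.39 for *Tap2*, -0.086 for *Tapbp* and -0.061 for *Erap1*. In the comparison of genotypes with TNFα, 0 genes were called lower in the fit to all 16 libraries, and the filterByExpr filter gave 0.0035 for *Psme2* and 0.0017 for *Tap1*. DESeq2 gave 0.010 for *Psmb5* with TNFα in the mutant.

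Leaving out 1 library at a time gave between 0 and 1 genes called higher in the mutant in vehicle and between 0 and 1 called lower. The log2 fold changes were then -1.82 to 0.77 for *Psmb8*, -1.93 to 0.54 for *Psmb9*, -0.87 to 0.035 for *Psmb10*, -0.26 to 0.084 for *Psme1*, -0.53 to 0.15 for *Tap1*, -0.64 to 0.24 for *Tap2*, -0.029 to 0.058 for *Psmb6* and -0.0023 to 0.063 for *Psmb7* in vehicle, and -0.13 to 0.054 for *Psmb9*, -0.043 to 0.065 for *Psmb10*, -0.072 to 0.054 for *Psme2*, -0.085 to 0.021 for *Tap1*, -0.077 to 0.014 for *Erap1* and -0.12 to 0.019 for *Psmb7* with TNFα. In the interaction they were -0.71 to 1.94 for *Psmb8*, -0.62 to 1.9 for *Psmb9*, -0.029 to 0.89 for *Psmb10*, -0.19 to 0.51 for *Tap1*, -0.36 to 0.53 for *Tap2*, -0.057 to 0.56 for *Tapbp*, -0.027 to 0.27 for *Erap1* and -0.0069 to 0.31 for *Psmb5*, and *Psmb5* with TNFα in the mutant was at -0.26 to 0.058.

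Replicate numbers were not used to pair the libraries. The deviations of same-numbered libraries correlated between -0.199 and 0.159, and 2 of 16 correlated best with their own number. The lowest value was that of Wild type replicate 4, whose libraries stood apart from their groups. Since the labels do not state which culture or animals each library came from, these values cannot decide whether same-numbered libraries were paired. With the replicate block, *Tapbpl* with TNFα was at -0.28 between genotypes, and 10, 10, 0, 1 and 0 genes were called in the 5 comparisons, as without it. Depth limits *Psmb9* in vehicle, at 4 to 12 counts in Wild type replicates 1 to 3. In *Notch2* mutant TNFα replicate 4 a given level rests on fewer counts than in any other library. The 10 genes had from 196 counts, for *Psmb9*, to 3436, for *Tapbp*, in it. Dividing by the longest transcript in place of the exon union moved 37 levels per kb by more than their SD and 15 by less. Without both Wild type replicate 4 libraries, 8 list counts changed to or from 0 or by over 1.5 times, and 144 did not.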
